A study of Homo sapiens with 12 samples.

Results

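The genes examined were PSMB1 to PSMB10, which encode the beta subunits of the 20S proteasome core and of its inducible form, the immunoproteasome. They were taken by gene name from the deposited expression table and make up 10 of its 58676 genes, of which PSMB1 to PSMB7 are the 7 constitutive members and PSMB8 to PSMB10 the 3 inducible members. RNA was sequenced from A549 cells, an established human lung carcinoma line, in a control line (genotype label Control1) and in 2 lines labelled as knockouts of NFE2L1, called KO1 and KO2. The cells of each line received DMSO (vehicle) or 200 nM of bortezomib, which inhibits the proteasome, for 4 h, which gives 6 groups of 2 libraries. All groups were grown in the same medium, and the labels record no other allele or agent. The labels used here do not say how the knockouts were made or whether a line is 1 clone, and since there is 1 control line, the knockout and other differences between lines cannot be told apart. Nothing in the labels says that the 2 libraries of a group came from separate cultures, so the p-values measure the spread between these libraries, which may be technical.

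The proteasome core is a barrel of stacked rings in which the beta subunits form the inner chamber and carry the proteolytic sites. Of the constitutive members, PSMB5 carries the chymotrypsin-like site, which is the main target of bortezomib, PSMB6 the caspase-like site and PSMB7 the trypsin-like site, while PSMB1, PSMB2, PSMB3 and PSMB4 have no active site. Interferon-gamma induces PSMB8, PSMB9 and PSMB10, which take the places of PSMB5, PSMB6 and PSMB7 in newly assembled cores and alter the peptides made for antigen presentation. NFE2L1 (also called NRF1) is a transcription factor of the endoplasmic reticulum membrane that is released when the proteasome is inhibited and acts on proteasome genes through antioxidant response elements.

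RefSeq promoter windows on GRCh38.p14, from 250 bases before to 50 bases after an annotated start, were found for 7 of the 10 members, and PSMB5 and PSMB8 had a pair of starts each. They were searched on both strands for 3 motifs of 9 bases, the antioxidant response element core TGANNNNGC, the gamma-activated site TTCNNNGAA and the interferon-stimulated response element core GAAANNGAA. Of all 35116 windows in the RefSeq table, 41.8% held the antioxidant core, 7.66% the gamma-activated site and 8.11% the interferon-stimulated core. Printed are the windows of PSMB2, PSMB3 and PSMB4, the members that passed the test for bortezomib in control cells once the replicate block was in the fit, and of the inducible PSMB8, PSMB9 and PSMB10. They run 5′ to 3′ on the strand of the gene, and capitals mark the motif matches, which do not overlap in these windows.
PSMB2 (minus strand, chr1:35641477-35641776): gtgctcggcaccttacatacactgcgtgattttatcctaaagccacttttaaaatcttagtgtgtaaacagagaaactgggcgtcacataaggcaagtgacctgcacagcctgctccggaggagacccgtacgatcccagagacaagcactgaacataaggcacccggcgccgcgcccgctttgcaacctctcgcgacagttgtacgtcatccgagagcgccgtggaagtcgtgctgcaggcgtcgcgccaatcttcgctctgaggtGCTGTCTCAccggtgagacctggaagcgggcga
PSMB3 (plus strand, chr17:38752491-38752790): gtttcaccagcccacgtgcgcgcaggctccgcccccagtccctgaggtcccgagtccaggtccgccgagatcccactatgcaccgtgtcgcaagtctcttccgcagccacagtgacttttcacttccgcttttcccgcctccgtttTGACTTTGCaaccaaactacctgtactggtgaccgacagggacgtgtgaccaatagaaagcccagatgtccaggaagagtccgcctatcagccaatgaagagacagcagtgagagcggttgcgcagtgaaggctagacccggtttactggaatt
PSMB4 (plus strand, chr1:151399323-151399622): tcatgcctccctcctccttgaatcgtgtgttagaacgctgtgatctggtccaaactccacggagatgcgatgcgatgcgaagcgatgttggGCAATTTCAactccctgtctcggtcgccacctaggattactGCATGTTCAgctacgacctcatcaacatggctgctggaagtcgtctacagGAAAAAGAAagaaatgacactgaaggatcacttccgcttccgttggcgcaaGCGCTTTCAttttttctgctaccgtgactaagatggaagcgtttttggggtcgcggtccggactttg
PSMB8 (minus strand, chr6:32843998-32844297): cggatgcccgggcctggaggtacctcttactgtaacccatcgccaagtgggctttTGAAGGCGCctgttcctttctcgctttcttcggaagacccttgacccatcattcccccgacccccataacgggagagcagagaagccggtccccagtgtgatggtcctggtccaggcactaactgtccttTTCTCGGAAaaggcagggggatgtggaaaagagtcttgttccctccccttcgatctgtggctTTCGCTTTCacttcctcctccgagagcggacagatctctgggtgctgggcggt
PSMB9 (plus strand, chr6:32853942-32854241): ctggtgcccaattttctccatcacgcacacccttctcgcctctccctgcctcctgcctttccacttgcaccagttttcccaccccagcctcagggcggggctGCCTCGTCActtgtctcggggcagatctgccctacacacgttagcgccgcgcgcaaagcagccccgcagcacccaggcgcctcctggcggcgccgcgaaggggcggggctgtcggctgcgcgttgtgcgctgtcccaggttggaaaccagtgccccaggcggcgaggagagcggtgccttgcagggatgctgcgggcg
PSMB10 (minus strand, chr16:67936801-67937100): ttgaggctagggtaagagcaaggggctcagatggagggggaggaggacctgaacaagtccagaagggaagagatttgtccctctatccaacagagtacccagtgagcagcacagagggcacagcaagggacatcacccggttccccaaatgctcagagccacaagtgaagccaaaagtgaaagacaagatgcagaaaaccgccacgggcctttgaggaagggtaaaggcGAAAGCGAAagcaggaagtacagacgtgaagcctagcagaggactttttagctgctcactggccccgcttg

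PSMB4 held 3 matches to the antioxidant core, at -159, -118 and -17 from the start (the position of the leftmost base of a match as printed), and 1 to the interferon-stimulated core at -68. PSMB3 held 1 match to the antioxidant core at -104, and PSMB2 held 1 at 17 bases after the start. PSMB5, which did not pass the test for bortezomib, is not printed but also held antioxidant cores. They lay at -133 and -106 in the window of its more upstream start and at -18 in the other. That other window also held gamma-activated sites at -158 and -15. The PSMB8 window shown is that of the more downstream of its starts, and it alone among the 9 windows of members held all 3 motifs, at -195, -65 and -3. The window of the other PSMB8 start, not printed, held only an antioxidant core, at -154. PSMB9 held only an antioxidant core, at -148, and PSMB10 only an interferon-stimulated core, at -21. A match is a stretch of letters and was not tested as a binding site.

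The libraries held 13211608 to 23819258 reads assigned to genes. Mitochondrial genes took 12.3% to 19.3% of the reads in the 6 libraries with the title suffix R2, against 5.44% to 6.80% in the 6 others, which carry R1 in the knockout lines and no suffix in control cells. The epithelial markers KRT8 (126 to 703 FPKM), KRT18, EPCAM and CDH1 were present in every library. Of the leukocyte markers, PTPRC and CD3E did not exceed 0.0602 FPKM, while CD14 reached 3.63. The summed endothelial markers did not exceed 0.240 FPKM. NFE2L1 had 72.7 and 151 FPKM in control cells in vehicle, 8.45 and 14.8 in KO1, and 18.6 and 33.6 in KO2, with the R2 library last, as in every pair of values that follows. In bortezomib NFE2L1 had 109 and 189 FPKM in control cells, 27.0 and 35.8 in KO1, and 36.7 and 50.8 in KO2. Each of these libraries was above its vehicle partner. In each treatment both libraries of each knockout line lay below both control libraries. FPKM is fragments per kilobase of gene, scaled to the library's depth.

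The constitutive members were expressed at far higher levels than the inducible ones in all 12 libraries. By the mean FPKM over the 12 libraries the order was PSMB3 (88.5), PSMB7 (69.4), PSMB6 (69.2), PSMB4 (67.6), PSMB5 (66.8), PSMB1 (38.8), PSMB2 (21.7), PSMB8 (4.94), PSMB9 (1.64) and PSMB10 (1.09). The ranges over libraries of neighbours in this order overlapped, including those of PSMB2 (6.52 to 46.8) and PSMB8 (1.79 to 10.5). Within every library, however, each constitutive member exceeded each inducible one. PSMB3 ranged from 26.3 to 157 FPKM, and the ranges of PSMB4, PSMB5, PSMB6 and PSMB7 over libraries overlapped. Within libraries their order could still be regular. PSMB5 was at or above PSMB4 in every vehicle library, and PSMB4 was above PSMB5 in every bortezomib library. In the R2 library of control cells with bortezomib they had 84.9 (PSMB4) and 61.6 FPKM (PSMB5). These orders were not tested.

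The genes lie apart in the genome except for PSMB8 and PSMB9. PSMB8 (ENSG00000204264, chr6:32840717-32844703, minus strand) and PSMB9 (ENSG00000240065, chr6:32844136-32859585, plus strand) overlap at their ends in the class II region of the major histocompatibility complex, on the deposited coordinates, which match GRCh38. PSMB10 (ENSG00000205220) is at chr16:67934502-67937087 on the minus strand. Of the constitutive members, PSMB4 (ENSG00000159377) is at chr1:151399534-151401944 on the plus strand, PSMB2 (ENSG00000126067) at chr1:35599544-35641844 on the minus strand and PSMB3 (ENSG00000277791) at chr17:38752736-38764231 on the plus strand. The main bortezomib target PSMB5 (ENSG00000100804) is at chr14:23016543-23035230, PSMB7 (ENSG00000136930) at chr9:124353466-124415444 and PSMB1 (ENSG00000008018) at chr6:170535117-170553341, all on the minus strand, and PSMB6 (ENSG00000142507) is at chr17:4796144-4798503 on the plus strand.

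Reads behind the constitutive members numbered 576 to 3990 in a library, against 69 to 291 for PSMB8, 41 to 196 for PSMB9 and 19 to 61 for PSMB10. The lowest of these, 19 reads for PSMB10, has an exact Poisson 95% interval of 11.4 to 29.7, which covers counting error only. PSMB11, the thymus-specific beta subunit, had at most 2 reads in a library, and PSMA8, a testis alpha subunit, had none. Reads of the inducible members can be shared with other genes, because their exons overlap. Whether counting used strand, which could separate only genes on opposite strands, is not given in the sources used here. PSMB8 shares exonic bases with the antisense PSMB8-AS1 (618 bases) and with PSMB9 (139 bases). On their own strands PSMB9 shares 174 bases with PSMB8-AS1, and PSMB10 shares 644 bases, 34.8% of its exonic bases, with AC040162.1. PSMB8 is the only member whose deposited length, 2006 bases, differs from its exonic bases in GENCODE release 29, which number 2997. The FPKM level of PSMB8, its percentage of PSMB5 and the inducible share of the beta genes depend on that length. PSMB8-AS1 itself did not exceed 0.238 FPKM.

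**Figure D1:**
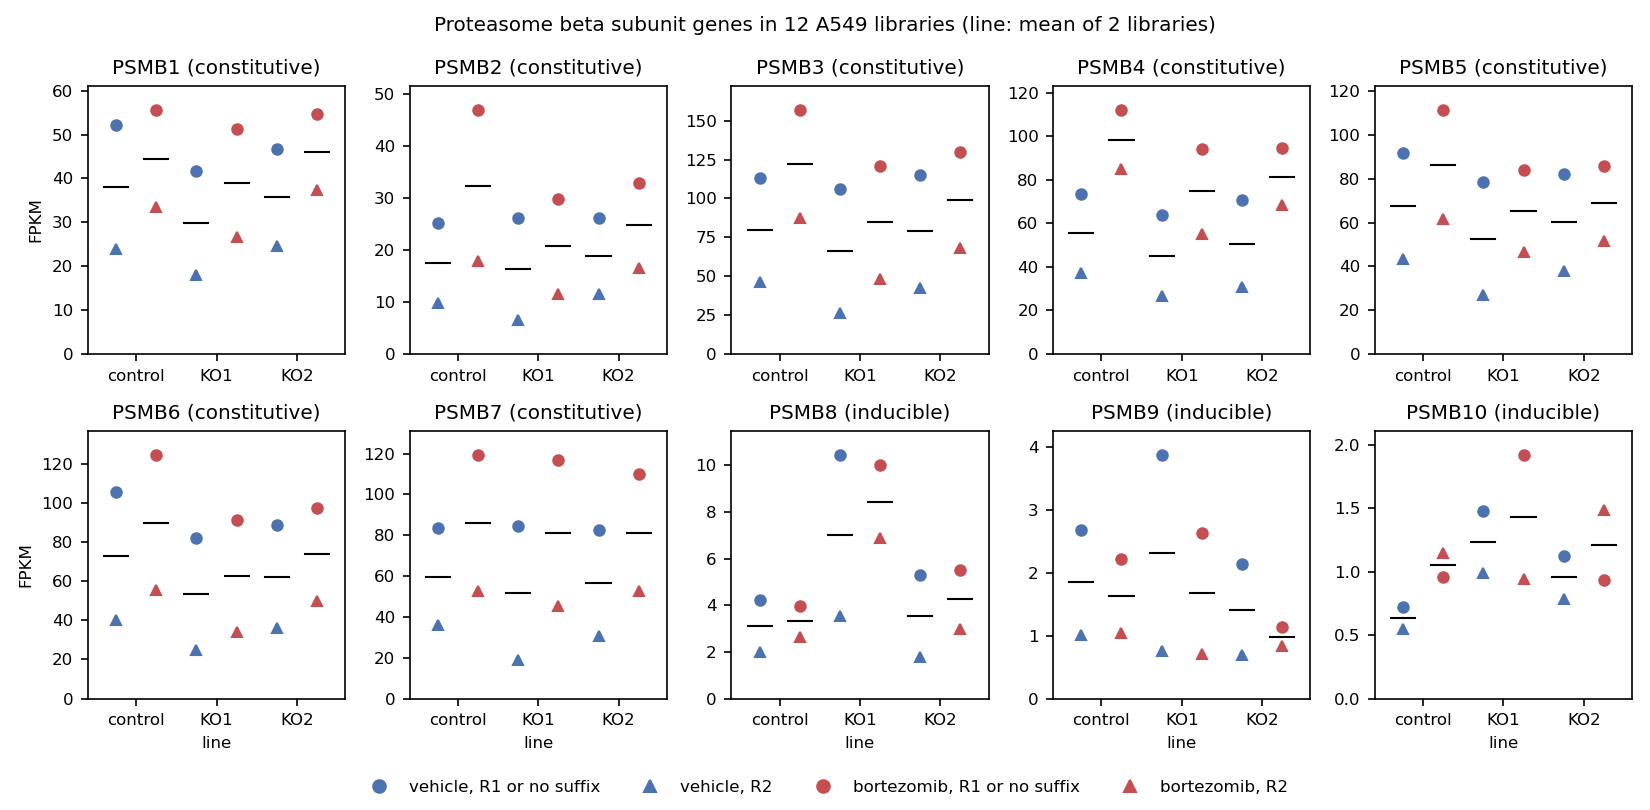
Level of each beta subunit gene (FPKM, y axis from 0, own scale per gene) in control cells, KO1 and KO2. Circles are libraries with R1 or no suffix, triangles are R2, blue is vehicle, red is bortezomib and the line is the mean of 2 libraries; triangles lie below the circles of their group for PSMB1 to PSMB7 throughout.

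Libraries of a group separated by replicate suffix in the constitutive members. All 7 were lower in the R2 library than in its partner in all 6 groups, at 0.226 to 0.758 times the partner's FPKM. Of the inducible members, PSMB8 and PSMB9 were also lower in R2 in every group, whereas PSMB10 was higher in R2 in 2 groups, the bortezomib groups of control cells and KO2. The R2 libraries are also those with the larger mitochondrial share, whose part in these levels was not tested. Because the same suffix moved groups together (the R2 difference correlated between all 15 pairs of groups, across genes, at 0.696 to 0.890), results are given without a replicate term and, where the call differs, with the suffix as a block.

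The response to bortezomib was read within each line, drug against vehicle. Constitutive members were higher with the drug in each line and in both suffix pairs, and inducible members had no common direction. In bulk RNA, more cells that express a gene and more RNA per cell cannot be told apart. PSMB4, a subunit without an active site, had 73.7 and 37.1 FPKM in vehicle and 112 and 84.9 in bortezomib in control cells. Both drug libraries were above both vehicle libraries there, with means of 98.4 ± 19.1 against 55.4 ± 25.9 FPKM (SD, n = 2 each). In KO1 it went from 63.6 and 26.7 to 94.4 and 55.0, and in KO2 from 70.5 and 30.9 to 94.4 and 68.3. In both knockout lines the groups overlapped through the R2 library of the drug group, although each library was above its own partner. The log2 fold change of PSMB4, on the scale of log2(FPKM + 1) used for all fold changes, was 0.88 in control cells (SE 0.60, limma adjusted p 0.659), 0.79 in KO1 (SE 0.60, limma adjusted p 0.810) and 0.77 in KO2 (SE 0.60, limma adjusted p 0.842). With the replicate block PSMB4 rose in all 3 lines, with a SE of 0.22 and limma adjusted p-values of 0.0145, 0.0262 and 0.0302.

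PSMB2, also without an active site, had 25.2 and 9.75 FPKM in vehicle and 46.8 and 17.8 in bortezomib in control cells. Each drug library was above its partner, and the groups overlapped. Its log2 fold change was 0.84 (SE 0.79, limma adjusted p 0.794), and with the replicate block PSMB2 rose (SE 0.20, limma adjusted p 0.0140). In KO1 PSMB2 went from 26.1 and 6.52 to 29.9 and 11.6, and in KO2 from 26.0 and 11.6 to 32.9 and 16.6. These differences of 0.46 and 0.41 did not pass with the block either (limma adjusted p 0.120 and 0.170). PSMB3, which had 113 and 46.4 FPKM in vehicle and 157 and 87.6 in bortezomib in control cells, sat at the threshold. Its change of 0.68 passed with the block by suffix (limma adjusted p 0.0497) and missed it with the unsuffixed libraries grouped with R1 (limma adjusted p 0.0521). In KO1 and KO2 its differences were 0.52 and 0.42.

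Of the catalytic members, PSMB7 passed in KO1 and the others in no line. PSMB7, the trypsin-like subunit, had 83.7 and 35.8 FPKM in vehicle and 119 and 52.5 in bortezomib in control cells, 84.6 and 19.1 against 117 and 45.5 in KO1, and 82.4 and 30.6 against 109.8 and 52.8 in KO2. It rose with the block in KO1 (log2 fold change 0.84, SE 0.22, limma adjusted p 0.0229), where the R2 library had 2.38 times its vehicle partner. The differences of 0.52 in control cells and 0.59 in KO2 did not pass (limma adjusted p 0.101 and 0.0797 with the block). PSMB5, the main target of bortezomib, had 91.8 and 43.3 FPKM in vehicle and 111 and 61.6 in bortezomib in control cells, a difference of 0.39 (95% interval -1.13 to 1.90). With the block its interval was -0.06 to 0.83 (limma adjusted p 0.162). In KO1 PSMB5 went from 78.4 and 26.7 to 84.0 and 46.3 (0.43), and in KO2 from 82.3 and 37.9 to 85.8 and 51.6 (0.25). PSMB6, the caspase-like subunit, had log2 differences of 0.34, 0.30 and 0.30 in control cells, KO1 and KO2, and went from 106 and 40.3 to 125 and 55.4 FPKM in control cells. PSMB1 went there from 52.1 and 24.0 to 55.5 and 33.5 FPKM (0.28), with differences of 0.42 and 0.40 in KO1 and KO2.

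No member was called without the block in any line (limma, 0 of 10, with 0 of 10 at an unadjusted p under 0.05), and voom in limma on reads recovered from the FPKM called 0 as well. Over all 12194 genes tested, 0.467% were called in control cells, 0.238% in KO1 and 0.32% in KO2 in either direction. With the block by suffix 3 of 10 members were called higher in control cells (PSMB2, PSMB3 and PSMB4) where 16.1% of all genes were, 2 in KO1 (PSMB4 and PSMB7) where 13.9% were, and 1 in KO2 (PSMB4) where 12.7% were. In the same fits 0 of 10 members were called lower, where 16.4%, 13.8% and 14.4% of all genes were. The share of members called higher in KO2 is no larger than that of all genes, and none of the called members was inducible. The median log2 fold change of the constitutive members was 0.52 in control cells, 0.46 in KO1 and 0.41 in KO2, beside 0.11, 0.10 and 0.17 for the inducible members and -0.01, 0.00 and -0.02 for all genes tested. Without the replicate term, leaving out 1 library changed the sign of the constitutive median in each line, with ranges of -0.078 to 1.12, -0.32 to 1.39 and -0.15 to 0.96. Leaving a library out unbalances the suffixes, so these ranges also hold the difference between R2 and the other libraries. Adding 1 to the FPKM shrinks the changes of the low inducible genes. With 0.1 added instead, the inducible medians were 0.15, 0.15 and 0.30 and the constitutive ones 0.53, 0.50 and 0.43. The summed fibroblast markers, almost all COL1A1, were 1.59 to 5.62 FPKM in the vehicle groups and 6.17 to 23.7 in the bortezomib groups, and their part in these results was not tested. In the 6 suffix pairs all 7 constitutive members were higher with bortezomib, at 1.04 to 2.38 times the vehicle FPKM.

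**Figure D2:**
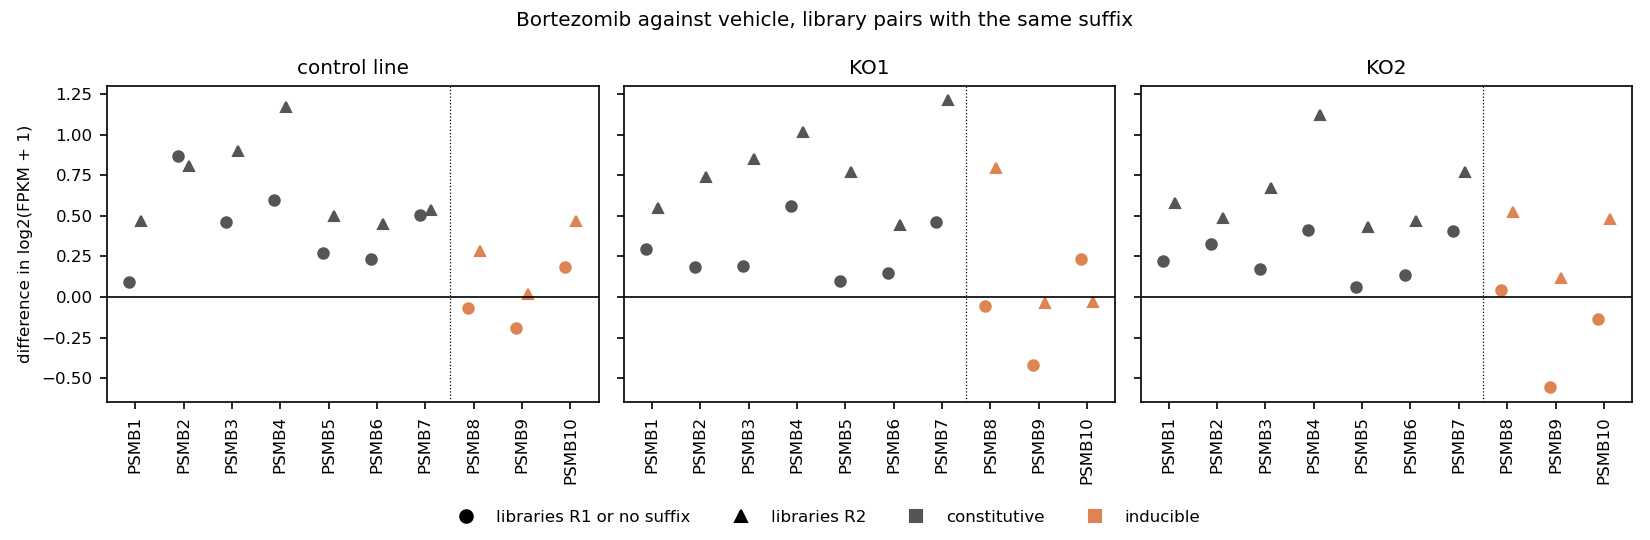
Difference in log2(FPKM + 1) between bortezomib and vehicle for each gene, within library pairs of the same suffix, in control cells, KO1 and KO2. Circles are pairs with R1 or no suffix, triangles are R2 pairs, gray is constitutive and orange inducible; every gray point is above 0, and orange points lie on both sides.

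The inducible members gave no common direction with bortezomib. In the pairs with R1 or no suffix 1 of 3 was higher in each line. In the R2 pairs 3 of 3 were higher in control cells and KO2, and 1 of 3 in KO1. PSMB8, the immunoproteasome counterpart of PSMB5, had 4.21 and 2.00 FPKM in vehicle and 3.97 and 2.65 in bortezomib in control cells, so 1 pair was lower and 1 higher (log2 fold change 0.11, SE 0.54, limma adjusted p 0.981). In the knockout lines PSMB8 was 0.957 and 1.94 times its vehicle partner in KO1, and 1.04 and 1.68 times in KO2. These differences of 0.37 and 0.28 did not pass (limma adjusted p 0.220 and 0.344 with the block). PSMB9, the counterpart of PSMB6, had 2.68 and 1.01 against 2.22 and 1.04 in control cells, 3.87 and 0.754 against 2.64 and 0.707 in KO1, and 2.13 and 0.693 against 1.13 and 0.840 in KO2. Its log2 differences were -0.09, -0.23 and -0.22, and the pair with R1 or no suffix was the lower of the 2 pairs in each line. None passed the test with or without a block (limma adjusted p 0.536 or higher). PSMB10, the counterpart of PSMB7, had 0.725 and 0.548 FPKM in vehicle and 0.959 and 1.15 in bortezomib in control cells. These groups did not overlap, but the values rest on 19 to 40 reads and the difference of 0.33 did not pass (limma adjusted p 0.755, and 0.310 with the block). In KO1 PSMB10 was 1.30 and 0.955 times its vehicle partner, and in KO2 0.831 and 1.90 times.

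The other proteasome genes give the setting for these changes. In control cells without the block no gene of the following lists was called. With the block by suffix 16.1% of all genes were called higher and 16.4% lower, the shares against which the counts of each list are read. In that fit, 2 of 5 tested 20S alpha subunits rose (list median 0.47, PSMA5 highest at 0.78), as did 5 of 6 ATPases of the 19S regulator, which unfold substrates (median 0.83, PSMC4 highest at 1.43), and 10 of 12 non-ATPase regulator subunits (median 0.76, PSMD12 highest at 1.31). The lowest values of the same lists were 0.18 for PSMA7, 0.34 for PSMC1 and 0.20 for PSMD7. Of 4 assembly chaperones tested, which help to build the core, PSMG3 fell by 0.61 and POMP, which matures the beta ring, had 0.30. Of the 4 other activators PSME4 rose by 0.81, whereas the interferon-inducible PSME2 had -0.22. Among 12 tested genes of interferon signalling and antigen presentation, 2 rose with the block, a share near the 16.1% of all genes (HLA-B highest at 0.95, IFI6 lowest at -0.38), and the list median was 0.02. HLA-B, which encodes a class I antigen-presenting molecule, shares sequence with other HLA genes, so its reads are uncertain. The constitutive beta median of 0.52 was near that of the alpha list and below both 19S lists in the same fit, differences that were not tested.

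The knockout lines were compared with control cells as lines, since the knockout and other differences between lines cannot be told apart. In vehicle the constitutive members were lower in KO1 and near the control level in KO2, and PSMB8 was higher in KO1, but none of these differences passed the test without the block. PSMB6 had 106 and 40.3 FPKM in control cells, 82.3 and 24.9 in KO1 and 88.5 and 36.0 in KO2. Libraries of different suffix lay farther apart than the lines did, and the groups overlapped. Its log2 difference was -0.51 in KO1 (SE 0.81, limma adjusted p 1, and 0.180 with the block) and -0.21 in KO2. Each of the 7 constitutive members had a negative value in KO1, from -0.23 for PSMB2 to -0.51 for PSMB6, with a median of -0.43 beside 0.02 for all genes. In the R2 pair all 7 were lower, at 0.533 to 0.747 times the control, and in the other pair 5 of 7 were, at 0.780 to 1.04 times. For KO2 the median was -0.12 beside 0.06 for all genes, and 5 of 7 were lower in each pair. The 2 comparisons share the control libraries.

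PSMB8 had the opposite sign in KO1. It had 4.21 and 2.00 FPKM in control cells in vehicle, 10.5 and 3.54 in KO1, and 5.30 and 1.79 in KO2. With bortezomib it had 3.97 and 2.65 in control cells, 10.0 and 6.87 in KO1, and 5.50 and 3.00 in KO2. KO1 was above control cells in each suffix pair, at 1.77 to 2.59 times its FPKM, and in bortezomib both KO1 libraries were above both control libraries, while the KO2 values straddled the control in vehicle. The means in vehicle were 3.10 ± 1.56 FPKM in control cells and 6.998 ± 4.88 in KO1 (SD, n = 2 each). The log2 difference was 0.87 (SE 0.54, limma adjusted p 1), and it ranged from 0.20 to 1.53 when each library was left out in turn. With the block by suffix it was 0.72 (SE 0.25, limma adjusted p 0.129), and with the unsuffixed libraries grouped with R1 it was 0.87 again and passed (SE 0.21, limma adjusted p 0.0356), where 3.88% of all genes were called higher. The call depends on how the unsuffixed control libraries are placed, since the suffix R1 occurs only in the knockout lines. In KO2 PSMB8 had 0.08 without the block and -0.07 with the block by suffix, neither past the test (limma adjusted p 1 and 0.910), and -0.03 with quantile normalization.

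Leukocytes carry immunoproteasomes, and the leukocyte markers CD14 and LYZ reached 3.63 and 0.177 FPKM. The summed level of these markers with PTPRC and CD3E in vehicle was 2.38 to 3.14 in control cells, 2.44 to 3.69 in KO1 and 0.783 to 2.38 in KO2, and in bortezomib 0.380 to 0.718, 0.404 to 0.815 and 0 to 0.464. PTPRC, a marker of leukocytes, and CD3E, a marker of T cells, were at or near 0 in all libraries, with a median of 0.

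In vehicle PSMB9 had opposite signs in the 2 pairs of KO1, while PSMB10 was above the control in both, as PSMB8 was. PSMB9 had 2.68 and 1.01 FPKM in control cells in vehicle against 3.87 and 0.754 in KO1 and 2.13 and 0.693 in KO2, so KO1 was higher in 1 pair and lower in the other (log2 difference 0.10 and, for KO2, -0.24). PSMB10 had 0.725 and 0.548 against 1.48 and 0.988 in KO1 and 1.13 and 0.785 in KO2. Both libraries of each knockout line were above both control libraries, on 19 to 45 reads, and the differences of 0.44 and 0.25 did not pass (limma adjusted p 1 for both, and 0.511 and 0.795 with the block).

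Counts of calls for the knockout were at or near 0. In the fit without the block 0 of 10 members were called (and 0 at an unadjusted p under 0.05) for KO1 in vehicle, where 0.213% of all genes were called in either direction, for KO2 (0.23%), and for the mean of both lines in vehicle (0.344%) and in bortezomib (0.164%). With the block by suffix the count was again 0 of 10, beside 5.95%, 4.91%, 6.18% and 7.66% of all genes in the same order, and 3, 0, 0 and 2 members had an unadjusted limma p under 0.05. Voom in limma gave 0 with and without the block. For the mean of both lines in bortezomib the constitutive median was -0.36 and the inducible median 0.16, beside 0.05 for all genes, and in vehicle they were -0.25 and 0.35 beside 0.04. Leaving out 1 library, which unbalances the suffixes, turned the sign of both constitutive medians, at -0.78 to 0.17 in bortezomib and -0.84 to 0.32 in vehicle. The inducible median in bortezomib was 0.064 with the block by suffix and -0.025 with quantile normalization and the block. With 0.1 in place of 1 added to the FPKM and no block, the inducible median was 0.25 in bortezomib and 0.56 in vehicle. The constitutive medians on that scale were -0.36 and -0.25. With the unsuffixed libraries grouped with R1, PSMB8 was called higher for the mean in bortezomib (0.69, SE 0.19, limma adjusted p 0.0359), where 6.65% of all genes were.

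**Figure D3:**
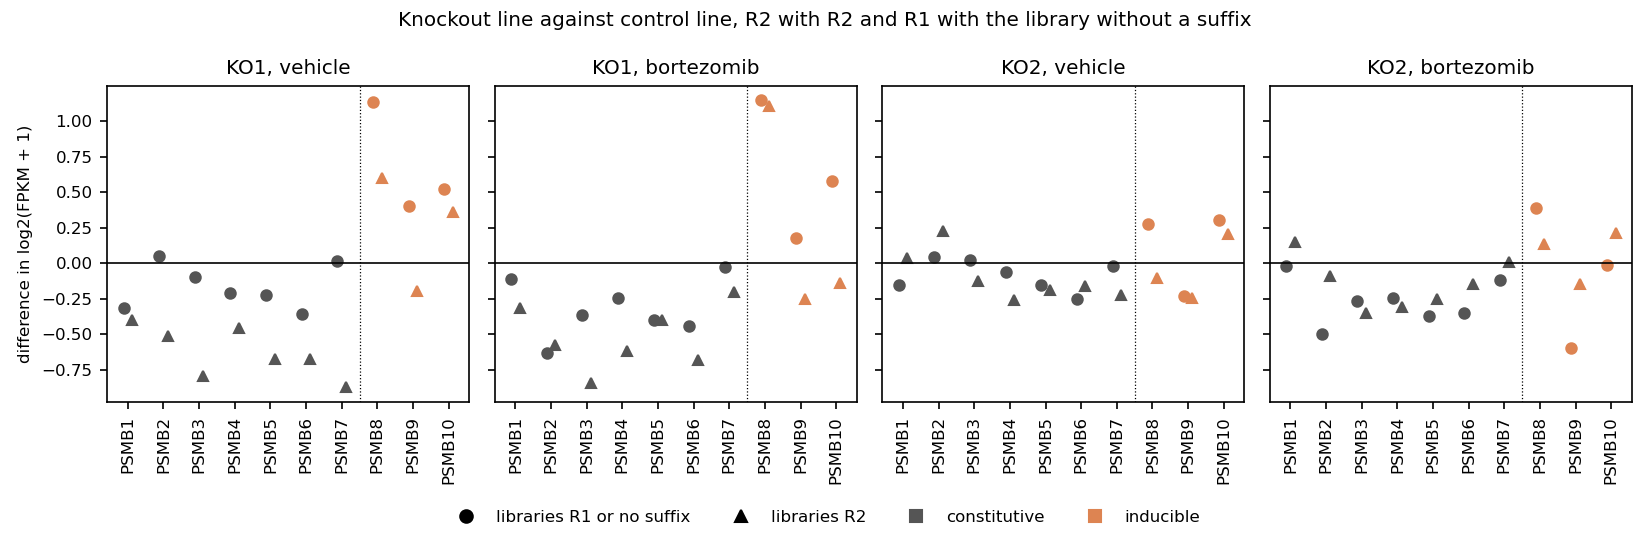
Difference in log2(FPKM + 1) between a knockout line and control cells, R2 with R2 and R1 with the control library that has no suffix, for KO1 and KO2 in vehicle and in bortezomib. Circles are the R1 pairs, triangles the R2 pairs, gray is constitutive and orange inducible; PSMB8 lies above 0 in both KO1 panels while most constitutive points lie below 0.

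Among the other lists, the mean of the knockout lines in vehicle without the block had medians of -0.18 for the 20S alpha subunits (PSMA3 highest at -0.08, PSMA7 lowest at -0.31), -0.27 for the 19S ATPases (PSMC6 -0.08, PSMC4 -0.45) and -0.28 for the 19S non-ATPases (ADRM1 0.11, PSMD14 -0.70), close to the constitutive beta median of -0.25. The assembly chaperones had -0.16 (PSMG2 -0.06, POMP -0.28) and the other activators 0.08 (PSME1 0.21, PSME4 -0.26). No gene of these lists was called without the block or with the block by suffix. The interferon and antigen presentation list had a median of -0.04 (-0.19 with the block by suffix). Of its 12 tested genes 2 were called with the block, where 6.18% of all genes were in either direction. In it TAPBP, a loading factor for class I molecules, rose by 0.79 with the block (limma adjusted p 0.0191) and IFI6, an interferon-stimulated gene, fell by 0.79 (limma adjusted p 0.0256).

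Each inducible level was set over the constitutive subunit that it replaces within the same library, which removes what both share in that library. PSMB8 was 4.58% and 4.62% of PSMB5 in control cells in vehicle, 13.3% and 13.3% in KO1, and 6.44% and 4.71% in KO2. Both libraries of KO1, at 10.5 and 3.54 FPKM of PSMB8 itself, gave nearly the same ratio, and the ratio in KO1 was 2.91 and 2.87 times the control. Its parts differed between the pairs. PSMB8 itself was 2.485 and 1.77 times the control, and PSMB5 was 0.854 and 0.617 times, so a lower PSMB5 makes up part of the ratio. In bortezomib the ratio was 3.57% and 4.29% in control cells, 11.9% and 14.8% in KO1, and 6.41% and 5.81% in KO2. All 4 KO1 libraries lay above the 8 others, and KO2 was 1.02 to 1.80 times the control. The ratios are given as a description of these libraries, without a test.

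PSMB9 was 2.54% and 2.5% of PSMB6 in control cells in vehicle, 4.70% and 3.03% in KO1, and 2.41% and 1.93% in KO2. With bortezomib it was 1.78% and 1.87% in control cells, 2.88% and 2.07% in KO1, and 1.16% and 1.68% in KO2. For this ratio KO1 was above the control in each pair, at 1.10 to 1.85 times. KO2 was below it in each pair, at 0.651 to 0.948 times. A higher ratio did not always mean more PSMB9. Between the R2 libraries of KO1 and control cells, PSMB9 itself was 0.747 times the control in vehicle and 0.682 times in bortezomib. PSMB6 was lower still, at 0.618 times in both treatments. In the other pairs of KO1, PSMB9 was 1.445 and 1.19 times the control, with PSMB6 at 0.780 and 0.734 times. PSMB10 was 0.867% and 1.53% of PSMB7 in control cells in vehicle, 1.75% and 5.17% in KO1, and 1.37% and 2.56% in KO2. Here libraries of a group differed about as much as the lines, and the value of 5.17% rests on 34 reads of PSMB10. In bortezomib PSMB10 was 0.804% and 2.18% of PSMB7 in control cells, 1.64% and 2.07% in KO1, and 0.853% and 2.82% in KO2, with overlap between groups.

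**Figure D4:**
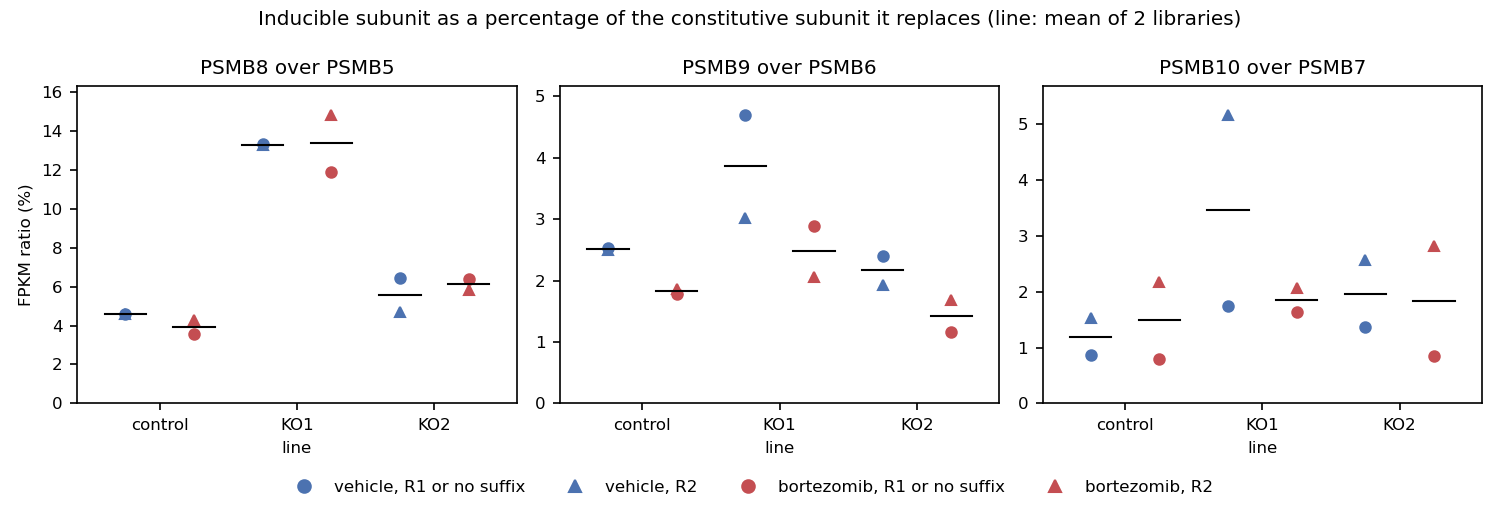
FPKM of PSMB8 over PSMB5, PSMB9 over PSMB6 and PSMB10 over PSMB7 in percent (y axis from 0) in each library of control cells, KO1 and KO2. Circles are libraries with R1 or no suffix, triangles are R2, blue is vehicle, red is bortezomib and the line is the mean of 2 libraries; the PSMB8 ratio of KO1 is 11.9% to 14.8% and that of the other lines 3.57% to 6.44%.

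The inducible members made up 1.38% and 1.48% of the summed FPKM of the 10 beta genes in control cells in vehicle, 3.17% and 3.44% in KO1, and 1.65% and 1.50% in KO2. In bortezomib the shares were 0.975% and 1.21%, 2.41% and 3.08%, and 1.24% and 1.52%. In 5 of the 6 suffix pairs the share was lower with bortezomib, the exception being the R2 pair of KO2.

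Whether the bortezomib response differed between the knockout lines and control cells was asked with the interaction term. No member was called, without the block (0 of 10, where 0.0% of all genes were) or with it (0 of 10, 0.0%), and 0 had an unadjusted limma p under 0.05 in either fit. The lowest value was that of PSMB2, at -0.40 (95% interval -0.97 to 0.16 with the block, limma adjusted p 0.620), and the highest that of PSMB8, at 0.22 (-0.36 to 0.80, limma adjusted p 0.826). The medians were -0.05 for the constitutive and -0.14 for the inducible members beside 0.01 for all genes. The suffix pairs pointed in opposite directions for the median of the constitutive members, though not for each member. Their median drug difference was 0.46 in control cells, 0.19 in KO1 and 0.22 in KO2 in the pairs with R1 or no suffix. In the R2 pairs it was 0.54, 0.77 and 0.58. PSMB2, PSMB3 and PSMB4 had a smaller drug difference in both knockout lines than in control cells in each suffix pair. PSMB1 had a larger one in each, and PSMB5, PSMB6 and PSMB7 kept no direction across the pairs. PSMB4, which rose in all 3 lines with the block, had an interaction of -0.11 (-0.71 to 0.49).

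KO1 and KO2 were also compared with each other in vehicle, and 0 of 10 members were called without the block (limma, 0.0656% of all genes, 0 at an unadjusted p under 0.05) or with it (3.0% of all genes, 1 at an unadjusted p under 0.05). That 1 was PSMB8, with 0.78 (SE 0.21 with the block, limma adjusted p 0.0922). The constitutive median was -0.31 and the inducible median 0.34, beside -0.05 for all genes.

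The genes most like 2 members over the 12 libraries were found by the mean absolute difference in log2(FPKM + 1), after each gene was centred on its own mean, among 12184 genes outside the members. For PSMB5 these were DPH3 (0.0697), SSB (0.0744) and UBXN2A (0.0827), all closer to it than its nearest fellow member, PSMB1 (0.126), and PSMB8 was the farthest member (0.541). For PSMB9 they were EIF2AK4 (0.112), ACAT1 (0.140) and GNA12 (0.143), and the nearest member was PSMB1 (0.286), before PSMB5 (0.298). All points share the library suffix, so the likeness is a description of these libraries.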

How the data were processed

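RNA sequencing was analysed from 12 A549 libraries in 6 groups, assigned from the labels alone. The submitters' processing notes name CASAVA, STAR 2.5, HTSeq 0.6.1, DESeq2 and the build hg19, but all 58676 gene IDs of the deposited table are in GENCODE release 29 (GRCh38), 95.2% of them at the same position, including all 10 members, so coordinates are read as GRCh38. The values deposited by the authors are FPKM, in 1 column per library, with a gene length. FPKM times length gave whole reads (within 0.1 read) for 100% of values, which yields the depth of 13211608 to 23819258 reads per library.

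The filter kept 12194 genes, including all 10 members, whose mean FPKM was 1 or more. They were tested with limma (version 3.58.1, R 4.3.3, eBayes with trend) on log2(FPKM + 1), 1 mean per group, 12 libraries in 1 fit, no replicate term, and Benjamini-Hochberg adjusted p-values called under 0.05. Fold changes on this scale understate the change of low genes. The title suffix pairs the libraries. The R2 difference correlated between all 15 pairs of groups (0.696 to 0.890, median 0.811), so fits with a replicate block were run beside it, 1 with the unsuffixed control libraries on a level of their own and 1 with them grouped with R1. In the first, knockout and control are tied mainly through R2. With 2 libraries against 2 no permutation test was used. The alternatives were a pseudocount of 0.1, no filter or a mean FPKM of at least 5, other scalings (a common sum, no mitochondrial genes, quantile), voom on recovered reads, fits of the compared groups alone, and each library left out in turn. The scripts were tested on simulated data.

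All 10 members were named, with NFE2L1, the highest and lowest gene of each list for bortezomib in the control line and for the knockout mean in vehicle, and the 3 genes most like PSMB5 and PSMB9. The lists were the 20S alpha, 19S, chaperone, activator, tissue-restricted, and interferon and antigen presentation genes, and markers of epithelial, leukocyte, fibroblast and endothelial cells. In the leukocyte list 1 marker is not reported here and is left out of the sums. The members and lists were chosen with earlier results of these data known. The tissue-restricted PSMB11 and PSMA8 did not pass the low-FPKM filter. Sequences are from RefSeq (GRCh38.p14). Python 3.11.15, numpy 2.4.6 and pandas 2.3.3 were used.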

Additional observations from a re-analysis of the deposited data

Results flagged for a closer look

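PSMB2 was picked out because its difference between KO2 and control cells had opposite signs in the 2 treatments. In vehicle both KO2 libraries were above their control partners (log2 differences of 0.05 and 0.22), and in bortezomib both were below (-0.50 and -0.09). The mean differences in vehicle and in bortezomib lay 0.43 apart. The difference for KO2 alone was not tested, and the interaction of the mean of both knockout lines for PSMB2, -0.40, did not pass (limma adjusted p 1, and 0.620 with the replicate block).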

How the results depend on the processing

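The counts of members called moved only with a replicate block, where the pairing check gave a median of 0.811. Bortezomib called 3 members in control cells, 2 in KO1 and 1 in KO2 with the block by title suffix, and 2, 2 and 1 with the unsuffixed libraries grouped with R1. It called 4 (PSMB7 added), 2 and 2 with voom and the block, and 3, 2 and 1 with quantile normalization and the block, an alternative chosen after seeing the data. With the unsuffixed libraries grouped with R1, 1 member (PSMB8) was called for KO1 in vehicle and 1 for the knockout mean in bortezomib. Of 26 gene results, 1 reversed with all libraries kept. PSMB8 in KO2 against control in vehicle was 0.08, and -0.067 with the block by suffix, -0.030 with quantile normalization and -0.18 with both (limma adjusted p 0.729 to 1).

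Leaving out 1 library at a time made no call without the block, but it unbalances the suffixes, and the values moved widely. The constitutive medians for bortezomib ranged over -0.078 to 1.12 in control cells, -0.32 to 1.39 in KO1 and -0.15 to 0.96 in KO2, and those of the knockout mean over -0.84 to 0.32 in vehicle and -0.78 to 0.17 in bortezomib. The ranges for single genes with bortezomib in control cells were -0.27 to 0.82 for PSMB1, -0.15 to 0.92 for PSMB5, -0.34 to 1.03 for PSMB6, -0.078 to 1.12 for PSMB7, -0.29 to 0.51 for PSMB8 and -0.52 to 0.35 for PSMB9. In KO1 they were -0.32 to 1.19 for PSMB5, -0.21 to 1.88 for PSMB7, -0.97 to 0.51 for PSMB9, and in KO2 -0.30 to 0.80 for PSMB5 and -0.66 to 0.23 for PSMB9. For KO1 against control in vehicle they were -1.36 to 0.33 for PSMB6, 0.20 to 1.53 for PSMB8 and -1.21 to 0.33 for the constitutive median. PSMB8 in KO2 ranged over -0.50 to 0.67 and PSMB6 in the knockout mean over -1.04 to 0.32. The interactions of PSMB2 and PSMB8 ranged over -1.08 to 0.27 and -0.18 to 0.62. For KO1 against KO2 the constitutive and inducible medians ranged over -1.15 to 0.53 and 0.029 to 1.08.

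Left out in the same way, also chosen after seeing the data, the PSMB8 over PSMB5 ratio of KO1 was 3.03 to 3.77 times the control in bortezomib. That of PSMB10 over PSMB7 was 1.46 to 4.32 (KO1) and 1.14 to 2.27 (KO2) in vehicle, and 0.851 to 2.31 and 0.571 to 2.28 in bortezomib. Depth limits PSMB10 most, at 19 to 61 reads.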
